A study of Homo sapiens with 6 samples.

Results

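The genes of the nuclear receptor superfamily were followed in PLC/PRF/5 cells, a human line established from a hepatocellular carcinoma. Cells had received siRNAs against SLU7 (3 arrays) or a control siRNA with an irrelevant target (3 arrays) 48 h before RNA was taken. SLU7 encodes a splicing factor of the second catalytic step, and the study's title concerns liver differentiation, metabolism and quiescence. The members were 45 genes, taken from a list of receptor symbols, out of 15949 named genes on the exon array used (Affymetrix Human Exon 1.0 ST). Each of the 45 had 1 transcript cluster with a single gene symbol, so no choice between clusters of a gene was needed, and no filter on dim clusters was applied. A transcript cluster joins the probe sets of a gene into 1 log2 expression value, called log2 units here. Both groups are 1 cell line, were transfected with the same lipid reagent and carry no other change that the labels give.

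Nuclear receptors are transcription factors that mostly bind small fat-soluble ligands, among them steroids, retinoids, bile acids, oxysterols and fatty acids. Most have a zinc-finger domain that binds DNA and a ligand-binding domain that recruits coactivators or corepressors, and many bind DNA as a dimer with a retinoid X receptor. In hepatocytes they are known for setting the expression of genes of bile acid, lipid, glucose and drug metabolism.

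SLU7 itself (transcript cluster 2884684) measured 5.84, 5.58 and 6.21 log2 units in the SLU7 siRNA arrays, against 7.89, 7.01 and 7.24 in the control siRNA arrays. The groups did not overlap, and the mean was 35.2% of the control level, with a limma adjusted p of 0.0783 over all clusters. The first principal component (36.6% of the variance) set SLU7 replicate 1 and control replicate 2 apart from the other 4 arrays, across the groups, so differences are also given for that pair and for the other 4 arrays alone. A difference within the pair is 1 array against 1 array and has no error. Of 12 hepatocyte and hepatoma markers, 11 were measured and none passed the test (limma, adjusted p under 0.05). Albumin (ALB) was dim in every array, at 2.84 to 3.42 log2 units with SLU7 siRNA and 3.17 to 4.52 with control siRNA, while the apolipoprotein gene APOA1 was at 10.29 to 10.94 and 11.22 to 11.75. The summed linear level of the 11 markers was 15166 to 16377 with SLU7 siRNA and 20299 to 21711 with control siRNA, and its part in the receptor differences was not tested. Most of this sum was KRT18, TF and KRT8, with means of 12.67, 11.89 and 11.27 log2 units with SLU7 siRNA and 12.86, 12.24 and 11.51 with control siRNA. The differences of the 11 markers ran from -1.07 (FGB) to 0.18 (GPC3), with a median of -0.51, and TTR differed by -0.06. PTPRC, the pan-leukocyte marker, stayed at or below 2.40 log2 units in every array, and none of the 4 blood cell, 4 endothelial and 5 fibroblast markers measured passed. The summed level of the 4 blood cell markers was 450.6 to 810.8 with SLU7 siRNA and 885.3 to 1336 with control siRNA. Most of that sum was LYZ (lysozyme), at 8.63 to 9.52 and 9.66 to 10.32 log2 units. PTPRC, CD14 and CD3E differed by 0.09, -0.09 and 0.30, and the list's median difference was -8.42e-05. The part of this summed level in the receptor differences was not tested either. The labels do not say whether replicates were separate cultures, so p-values reflect only how these arrays varied, possibly for technical reasons, and an array of bulk RNA cannot tell fewer expressing cells from less RNA per cell.

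No nuclear receptor gene passed the limma test after SLU7 siRNA: 0 of 45 had an adjusted p under 0.05 over all 18708 clusters, where 0.433% of all clusters passed. At an unadjusted p under 0.05 there were 6 of 45 (13.3%), 3 higher (6.55% of all clusters were) and 3 lower (6.54%), against 13.1% of all clusters in either direction, so the members' share was near the background. The 3 higher genes were NR4A1, NR4A3 and NR2E1, and the 3 lower ones ESRRA, NR1I2 and NR1H3. The groups did not overlap in 10 of 45 genes (22.2%), against 18.9% of all clusters, with 7 higher (15.6%, against 9.64%) and 3 lower (6.67%, against 9.21%). With 1 array left out the share without overlap lay above that of all clusters in 4 cases: 40.0% against 31.9% without SLU7 replicate 1, 35.6% against 25.5% without SLU7 replicate 2, 31.1% against 25.5% without SLU7 replicate 3, and 31.1% against 27.1% without control replicate 1. It lay below in the other 2: 31.1% against 32% without control replicate 2 and 24.4% against 27.2% without control replicate 3. The median difference, SLU7 siRNA minus control siRNA, was -0.051 log2 units over the 45 genes and 0.0043 over all clusters, with 21 genes above 0 and 24 below. Differences over 1 log2 unit in size, which is 2-fold, were found in 5 of 45 genes (11.1%), 3 higher and 2 lower, against 6.91% of all clusters. The standard errors of the 45 differences ran from 0.23 to 0.55, with a median of 0.31, as over all clusters (0.31). An exact two-sided permutation test of a single gene cannot go below p = 0.1 with 3 arrays against 3.

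**Figure D1:**
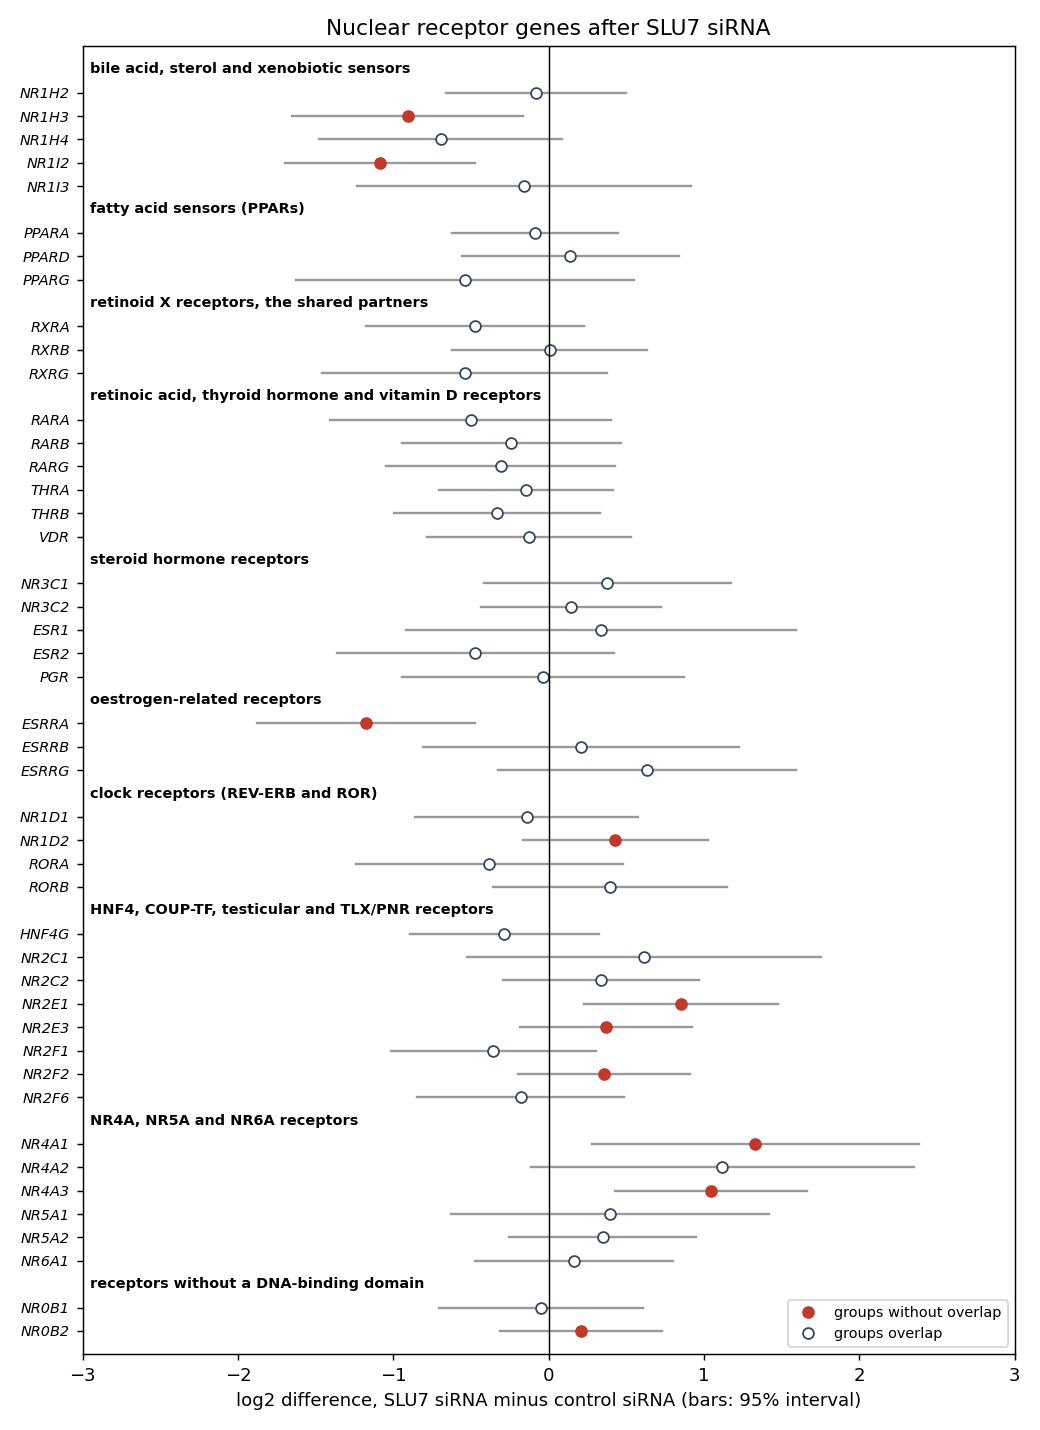
Log2 difference (SLU7 siRNA minus control siRNA, 3 arrays each) of each of the 45 receptor genes, ordered by role, with the 95% interval of the limma fit as a bar. Filled points mark the 10 genes whose groups do not overlap, and most intervals cross 0.

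The NR4A orphan receptors, immediate early genes that respond to growth and stress signals without a known hormone ligand, had higher means with SLU7 siRNA in all 3 members. NR4A1 (Nur77, transcript cluster 3415272) measured 8.59, 9.52 and 8.70 log2 units with SLU7 siRNA, against 8.05, 6.59 and 8.18 with control siRNA. NR4A2 (Nurr1, 2582146) measured 6.19, 7.59 and 7.17, against 6.61, 4.72 and 6.27. NR4A3 (NOR1, 3182015) measured 7.49, 7.58 and 7.64, against 6.70, 6.77 and 6.11. In NR4A1 and NR4A3 every SLU7 siRNA array lay above every control array, while in NR4A2 SLU7 replicate 1 lay below control replicates 1 and 3. The differences were 1.33 ± 0.46 (SE) log2 units for NR4A1, or 2.51-fold higher (limma adjusted p = 0.257), 1.12 ± 0.54 for NR4A2 (limma adjusted p = 0.442) and 1.04 ± 0.27 for NR4A3, or 2.06-fold higher (limma adjusted p = 0.137). NR4A1 and NR4A2 had their lowest control value in control replicate 2, and without that array their differences were 0.82 and 0.55. The NR4A3 difference was 0.72 between the 2 arrays of the pair and 1.21 in the other 4, against 1.999 and 0.996 for NR4A1 and 1.46 and 0.94 for NR4A2. With array weights NR4A3 had a limma adjusted p of 0.0393 and was the only receptor gene called, in a setting where 3.07% of all clusters were called.

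The promoter windows of the 3 receptor genes that were higher at an unadjusted p under 0.05 are shown. These genes were picked by that p alone and did not vary alike over the arrays. Control replicate 2 was the lowest control array for NR4A1 and the highest for NR4A3 and NR2E1. The windows are RefSeq windows of GRCh38.p14, from 250 bases before a transcription start to 50 after it, with 1 window per annotated start. The letters TGACG (core of the cAMP response element) and AGGTCA (the hexamer that many nuclear receptors bind) are in capitals where found on either strand.
NR4A1 chr12:52022582-52022881 (+): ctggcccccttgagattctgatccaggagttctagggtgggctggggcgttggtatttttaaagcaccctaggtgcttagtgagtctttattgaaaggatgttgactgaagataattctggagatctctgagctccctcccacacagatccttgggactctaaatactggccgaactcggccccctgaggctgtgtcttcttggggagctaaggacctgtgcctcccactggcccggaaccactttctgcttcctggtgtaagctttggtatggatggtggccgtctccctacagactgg
NR4A1 chr12:52037465-52037764 (+): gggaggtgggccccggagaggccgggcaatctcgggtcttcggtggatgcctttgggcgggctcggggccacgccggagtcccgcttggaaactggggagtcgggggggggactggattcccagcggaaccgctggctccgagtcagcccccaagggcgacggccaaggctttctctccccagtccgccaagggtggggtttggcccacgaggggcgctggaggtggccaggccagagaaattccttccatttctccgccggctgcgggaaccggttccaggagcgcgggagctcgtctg
NR4A3 chr9:99821635-99821934 (+): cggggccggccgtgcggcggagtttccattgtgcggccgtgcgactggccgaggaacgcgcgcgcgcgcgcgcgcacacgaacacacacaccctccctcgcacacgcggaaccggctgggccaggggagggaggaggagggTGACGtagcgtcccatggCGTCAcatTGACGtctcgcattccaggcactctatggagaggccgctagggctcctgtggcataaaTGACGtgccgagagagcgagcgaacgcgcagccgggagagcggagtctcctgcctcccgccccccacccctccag
NR2E1 chr6:108165772-108166071 (+): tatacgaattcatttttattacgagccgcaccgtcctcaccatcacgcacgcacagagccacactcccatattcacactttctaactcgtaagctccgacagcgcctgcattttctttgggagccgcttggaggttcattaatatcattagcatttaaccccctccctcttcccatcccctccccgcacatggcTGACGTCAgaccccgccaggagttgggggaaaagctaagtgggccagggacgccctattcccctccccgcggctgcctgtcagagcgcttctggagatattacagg
NR2E1 chr6:108167773-108168072 (+): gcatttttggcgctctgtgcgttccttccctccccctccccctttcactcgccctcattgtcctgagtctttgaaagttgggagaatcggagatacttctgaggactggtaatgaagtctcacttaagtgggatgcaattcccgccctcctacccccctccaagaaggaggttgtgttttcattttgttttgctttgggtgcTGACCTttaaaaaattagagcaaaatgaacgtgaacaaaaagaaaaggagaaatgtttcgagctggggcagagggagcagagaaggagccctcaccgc
NR4A3 held TGACG 4 times in its window, a count reached by 0.313% of all 35116 windows, while 24.6% held it at least once. Neither NR4A1 window held TGACG or AGGTCA. The upstream NR2E1 window held the full palindrome TGACGTCA, found in 1.85% of all windows, which contains TGACG on both strands, and the downstream one held AGGTCA on the minus strand, found in 13.8% of all windows. Of the 94 windows of the 40 matched members, 21 held TGACG (22.3%, against 24.6% of all windows) and 16 held AGGTCA (17.0%, against 13.8%). ESRRA and NR1I2 held neither, and NR1H3 held AGGTCA in 1 of its 4 windows. NR4A2, NR0B2, VDR, HNF4G and NR2F6 were not matched.

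The sensors of sterols, bile acids and drugs all had means below control. The summed level of the hepatocyte and hepatoma markers, mostly that of KRT18, TF and KRT8, was lower with SLU7 siRNA too. Its part in these differences was not tested. NR1H3 (liver X receptor alpha, the oxysterol receptor of lipogenic tissues, transcript cluster 3329716) measured 7.84, 8.72 and 8.45 log2 units with SLU7 siRNA, against 9.34, 8.82 and 9.56 with control siRNA. NR1I2 (the pregnane X receptor, a drug sensor, 2638215) measured 2.66, 2.78 and 2.27, against 3.58, 3.93 and 3.46. In both genes the groups did not overlap, and the gap in NR1H3 was narrow, between SLU7 replicate 2 and control replicate 2. The difference of NR1H3 was -0.91 ± 0.32 (SE), or 1.88-fold lower (limma adjusted p = 0.272), and that of NR1I2 -1.09 ± 0.27, or 2.12-fold lower (limma adjusted p = 0.122). All 6 NR1I2 values lay below the lower quartile of their array (4.86 to 4.98 log2 units), which leaves the size of its difference uncertain. With the pair of arrays as a block, NR1I2 was the only receptor gene called (limma adjusted p = 0.0471), and NR1H3 and ESRRA had limma adjusted p = 0.051 and 0.0508. In that setting 4.19% of all clusters were called, and the pair was picked from these same values, not from a label. NR1H4 (the bile acid receptor FXR) was also dim, at 3.89 to 4.44 with SLU7 siRNA and 4.29 to 5.43 with control siRNA, and its groups overlapped (difference -0.70 ± 0.34). The ubiquitous liver X receptor NR1H2 and the drug sensor NR1I3 (constitutive androstane receptor) differed by -0.08 ± 0.25 and -0.16 ± 0.47.

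Genes known as targets of these sensors did not pass the test, with 1 exception. Of 9 measured target genes of the pregnane X and constitutive androstane receptors, ABCC2, which exports bilirubin conjugates into bile, fell to 5.63, 6.42 and 5.97 log2 units with SLU7 siRNA, against 8.43, 7.81 and 9.07 with control siRNA. Its difference was -2.43 ± 0.37 (limma adjusted p = 0.0483, lost when any 1 array was left out), while the list's median was 0.21 and 5 of 9 genes lay above 0. CYP3A4, the standard target of the pregnane X receptor, differed by 0.52 (limma adjusted p = 0.585). None of 8 target genes of the liver X receptors passed (median -0.13, 6 below 0), and the smallest p was that of the desaturase gene SCD, at 12.01 ± 0.15 and 13.27 ± 0.11 (SD, n = 3 each; difference -1.25 ± 0.24, limma adjusted p = 0.0655). None of 9 genes of the bile acid pathway passed either (median -0.28, 6 below 0), with the smallest p in the sterol 27-hydroxylase gene CYP27A1 (-0.86 ± 0.31, limma adjusted p = 0.274).

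**Figure D2:**
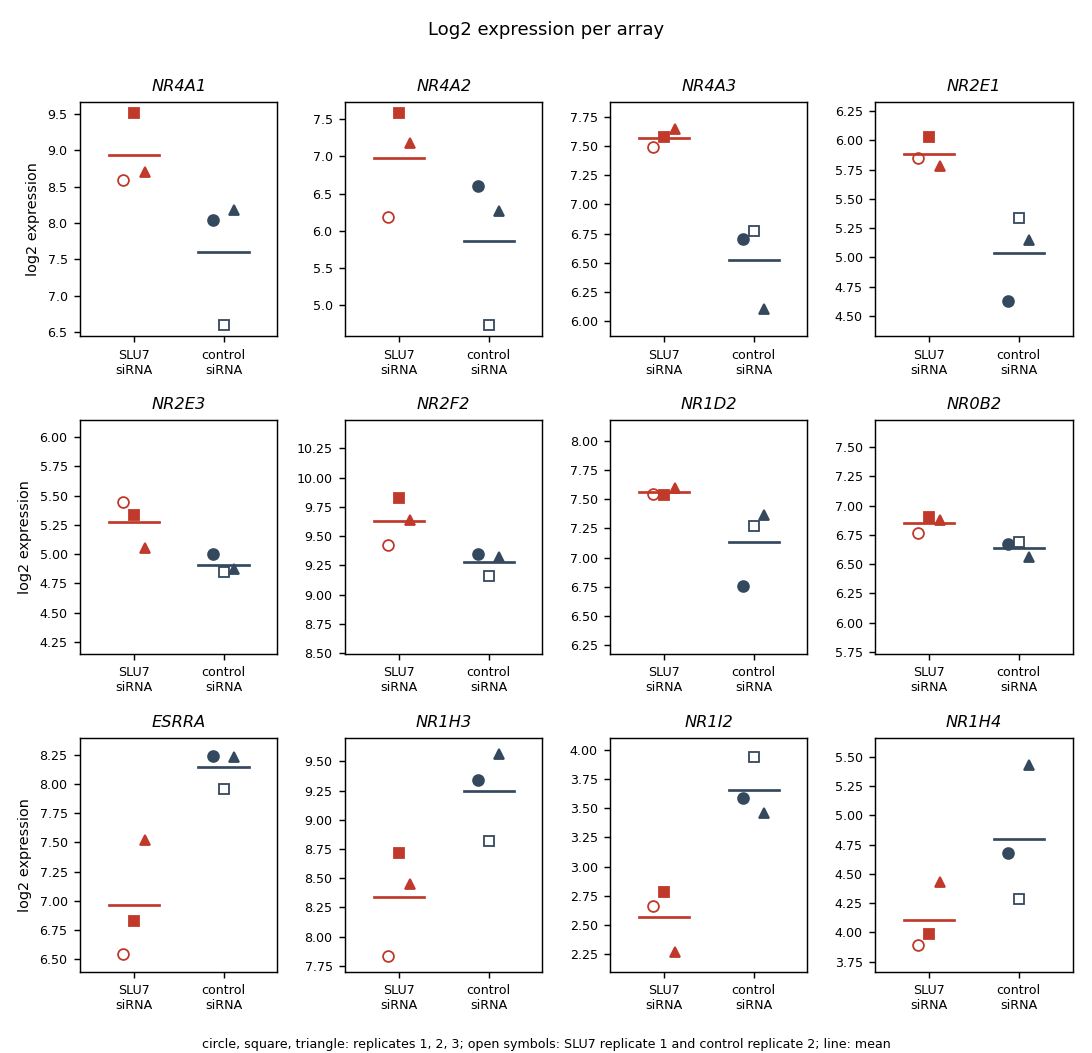
Log2 expression of 12 receptor genes in each array, SLU7 siRNA left and control siRNA right, with lines at the group means. Symbols mark replicate numbers and open symbols the pair of arrays that stands apart. NR4A1, NR4A2 and NR4A3 are higher on average with SLU7 siRNA, and ESRRA, NR1H3 and NR1I2 have every SLU7 siRNA array below every control array. Vertical scales differ between panels.

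ESRRA (oestrogen-related receptor alpha, an orphan receptor that acts with PGC-1 coactivators on genes of mitochondrial energy metabolism, transcript cluster 3334497) measured 6.55, 6.83 and 7.52 log2 units with SLU7 siRNA, against 8.24, 7.96 and 8.23 with control siRNA. Every SLU7 siRNA array lay below every control array. The difference of -1.18 ± 0.31 (SE), or 2.26-fold lower, had a 95% interval of -1.88 to -0.48 and a limma adjusted p of 0.139. Within the pair it was -1.41, and among the other 4 arrays -1.06. The groups of its paralogs overlapped. ESRRB ran from 4.32 to 6.16 with SLU7 siRNA and from 4.95 to 5.42 with control siRNA, with a difference of 0.21 ± 0.45. ESRRG lay below the lower quartile in all 6 arrays, with 3.39 in SLU7 replicate 1 and 1.62 to 2.01 in the other 5. The PGC-1 genes PPARGC1A and PPARGC1B differed by -0.16 ± 0.28 and -0.49 ± 0.36 (limma adjusted p = 0.901 and 0.658).

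The fatty acid sensors showed no difference past the test. PPARA, which drives fatty acid oxidation in liver, was the steadiest receptor gene, at 7.28, 7.54 and 7.43 log2 units with SLU7 siRNA and 7.47, 7.61 and 7.45 with control siRNA (difference -0.09, 95% interval -0.62 to 0.45). PPARG, the adipogenic receptor, measured 7.61, 8.43 and 8.76, against 9.37, 7.80 and 9.25. Its groups overlapped through control replicate 2, and its difference was -0.19 in the pair and -0.71 in the other 4 arrays (-0.54 ± 0.48 over all, limma adjusted p = 0.739). PPARD differed by 0.14 ± 0.31. None of 9 measured target genes of these receptors passed (median -0.41, 7 below 0), and the smallest p was that of ANGPTL4, a secreted inhibitor of lipoprotein lipase, at 8.43 ± 0.05 and 9.87 ± 0.21 (SD, n = 3 each; difference -1.44 ± 0.24, limma adjusted p = 0.0518).

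The retinoid X receptors, shared dimer partners of many of the receptors above, differed by -0.47 ± 0.31 (RXRA), 0.01 ± 0.28 (RXRB) and -0.54 ± 0.40 (RXRG, dim in 5 of 6 arrays). The receptors for retinoic acid, thyroid hormone and vitamin D all had means below control, by 0.50 or less. RARA had the largest of these differences, at 6.67, 6.01 and 5.31 log2 units with SLU7 siRNA and 7.02, 6.33 and 6.15 with control siRNA (-0.50 ± 0.40). Within the pair it was 0.34, and among the other 4 arrays -0.92. RARB, RARG, THRA, THRB and VDR ran from -0.33 to -0.13, and the groups overlapped in all 5. Among 9 measured genes of retinoic acid handling and response 8 lay below 0 (median -0.34), and none passed. The smallest p was that of CYP26A1, the enzyme that degrades retinoic acid and is itself induced by it, at 4.23 ± 0.35 with SLU7 siRNA and 5.38 ± 0.36 with control siRNA (SD, n = 3 each; difference -1.14 ± 0.30, limma adjusted p = 0.142).

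Among the steroid hormone receptors all groups overlapped. NR3C1 (the glucocorticoid receptor) measured 7.40, 6.98 and 6.75 log2 units with SLU7 siRNA, against 6.08, 7.25 and 6.67 with control siRNA, a difference of 0.38 ± 0.35. NR3C2 (the mineralocorticoid receptor) differed by 0.14 ± 0.25 and PGR (the progesterone receptor) by -0.04 ± 0.40. The oestrogen receptor genes ESR1 (0.34 ± 0.55) and ESR2 (-0.47 ± 0.39) had means below the lower quartile of all clusters. Of 12 target genes of the glucocorticoid receptor, PCK1, the cytosolic phosphoenolpyruvate carboxykinase of gluconeogenesis, fell to 4.76, 5.98 and 5.99, against 8.54, 8.21 and 8.65 (difference -2.89 ± 0.37, limma adjusted p = 0.0371, lost when any 1 array was left out). The other 11 did not pass, the list's median was -0.32, and PCK1 is also a target of other receptors and of hormone signals. TSC22D3, a direct glucocorticoid target, differed by 0.29 and TAT, tyrosine aminotransferase, by -0.08. None of the 8 chaperones of steroid receptors passed (median 0.09), HSP90AA1 having the smallest p (0.52 ± 0.28, limma adjusted p = 0.509).

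The clock receptors REV-ERB beta (NR1D2) and REV-ERB alpha (NR1D1) repress the circadian activator genes, and the ROR receptors activate them. NR1D2 (transcript cluster 2614169) measured 7.54, 7.54 and 7.60 log2 units with SLU7 siRNA, against 6.76, 7.27 and 7.36 with control siRNA. The groups did not overlap, but the difference of 0.43 ± 0.26 had a 95% interval of -0.17 to 1.02 (limma adjusted p = 0.57). NR1D1 differed by -0.14 ± 0.32, RORA by -0.38 ± 0.38 and the dim RORB by 0.39 ± 0.33, with overlap in each. Of 12 circadian partners none passed (median -0.18, 7 below 0). NPAS2, a partner of BMAL1, had the smallest p, at 6.66, 6.66 and 6.76, against 8.44, 7.82 and 8.34 (difference -1.51 ± 0.26, limma adjusted p = 0.0537). BMAL1 itself differed by -0.98 (limma adjusted p = 0.254).

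In the NR2 branch NR2E1 (tailless, a receptor known from neural stem cells, transcript cluster 2920357) measured 5.85, 6.03 and 5.78 log2 units with SLU7 siRNA, against 4.62, 5.34 and 5.15 with control siRNA. The groups did not overlap, with a difference of 0.85 ± 0.27, or 1.80-fold higher (limma adjusted p = 0.219). NR2E3, a receptor of photoreceptor cells, measured 5.45, 5.34 and 5.05, against 5.00, 4.85 and 4.87, also without overlap (0.37 ± 0.24, limma adjusted p = 0.605). Both lay near the lower quartile of the arrays, and 1 and 2 of their control arrays were below it. NR2F2 (COUP-TFII) was at 9.42, 9.83 and 9.64, against 9.35, 9.16 and 9.32, again without overlap and with a difference of 0.35 ± 0.24 (limma adjusted p = 0.631). Its paralogs overlapped, NR2F1 (COUP-TFI) with 8.33, 7.83 and 7.998, against 8.15, 8.84 and 8.24 (-0.36 ± 0.29), and NR2F6 with 8.28, 8.62 and 8.22, against 8.10, 8.68 and 8.89 (-0.18 ± 0.29). HNF4G differed by -0.29 ± 0.27 and the testicular receptor NR2C2 by 0.34 ± 0.28. NR2C1, the other testicular receptor, was lowest in SLU7 replicate 1 (5.51) and at 7.36 and 7.41 in the other SLU7 siRNA arrays, against 6.28, 5.79 and 6.37 with control siRNA. Its difference was -0.27 in the pair and 1.06 in the other 4 arrays.

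NR5A1 (steroidogenic factor), NR5A2 and NR6A1 (germ cell nuclear factor) had higher means with SLU7 siRNA, by 0.39 ± 0.45, 0.35 ± 0.26 and 0.16 ± 0.28, and the groups overlapped in each. NR5A2 (LRH-1) is known in liver as an activator of bile acid synthesis, and it measured 7.12, 7.01 and 7.38 log2 units with SLU7 siRNA, against 7.11, 6.55 and 6.80 with control siRNA. The receptors that lack a DNA-binding domain act by binding other receptors. NR0B2 (SHP, a repressor of bile acid synthesis, transcript cluster 2402888) measured 6.77, 6.90 and 6.88, against 6.67, 6.69 and 6.56, without overlap. Its difference was small, at 0.21 ± 0.23 (limma adjusted p = 0.81). NR0B1 (DAX-1) differed by -0.05 ± 0.29.

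The coregulators did not pass the test either. None of 18 measured coactivators did (median 0.04, 9 above 0 and 9 below), and the smallest p was that of the arginine methyltransferase gene PRMT1, at 8.72, 9.16 and 9.35 log2 units with SLU7 siRNA, against 10.82, 10.20 and 10.92 with control siRNA (difference -1.57 ± 0.30, limma adjusted p = 0.0674). Of 9 measured corepressors none passed (median -0.03), and NRIP1 had the smallest p, at 9.36 ± 0.22 with SLU7 siRNA and 8.72 ± 0.32 with control siRNA (SD, n = 3 each; limma adjusted p = 0.369). Without any 1 of the 6 arrays no cluster on the array passed, ABCC2 and PCK1 included (limma, 1833 to 2573 clusters at an unadjusted p under 0.05).

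**Figure D3:**
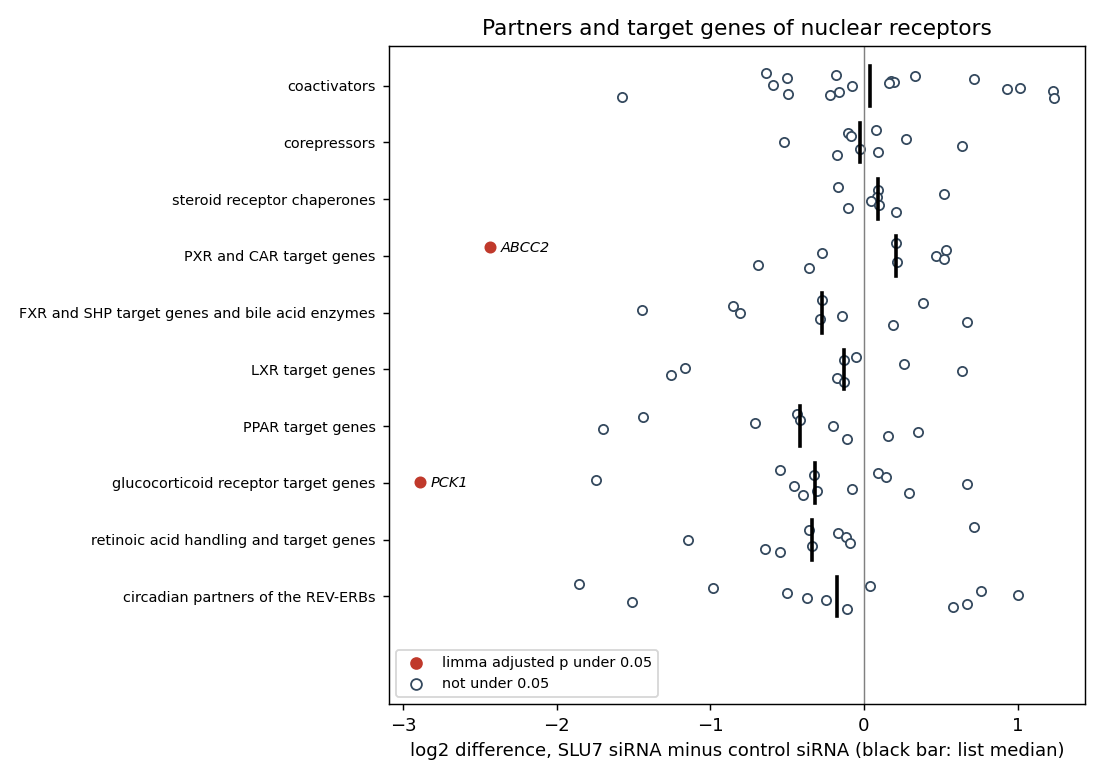
Log2 difference (SLU7 siRNA minus control siRNA) of each measured gene in 10 lists of receptor partners and target genes, with the list median as a black bar. ABCC2 and PCK1, filled, are the only listed genes with a limma adjusted p under 0.05.

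The receptor genes varied unequally from array to array. The range over the 6 arrays had a median of 1.12 log2 units, from 0.32 in PPARA to 2.92 in NR4A1 and 2.87 in NR4A2. Part of this variation followed the pair of arrays that stands apart. Within groups, NR4A2 (-1.46), PPARG (-1.25), NR2C1 (-1.20) and NR4A1 (-1.02) were lower in the pair than in the other 4 arrays, and ESR1 (1.42), NR5A1 (1.09), RXRG (0.98) and NR1I3 (0.92) were higher. The difference between SLU7 siRNA and control siRNA had the same sign within the pair and within the other 4 arrays in 34 of 45 genes. The share over all clusters was not computed, and the 10 genes whose groups do not overlap must have the same sign. The 11 genes with opposite signs included ESR2 (-1.69 and 0.14), ESRRB (-1.11 and 0.86), NR2C1 and RARA. NR1H3 and NR1I2 differed by -0.98 and -1.27 in the pair and by -0.87 and -0.99 in the other 4 arrays. Within the other 4 arrays the groups did not overlap in 23 of 45 genes (51.1%), against 46.2% of all clusters.

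**Figure D4:**
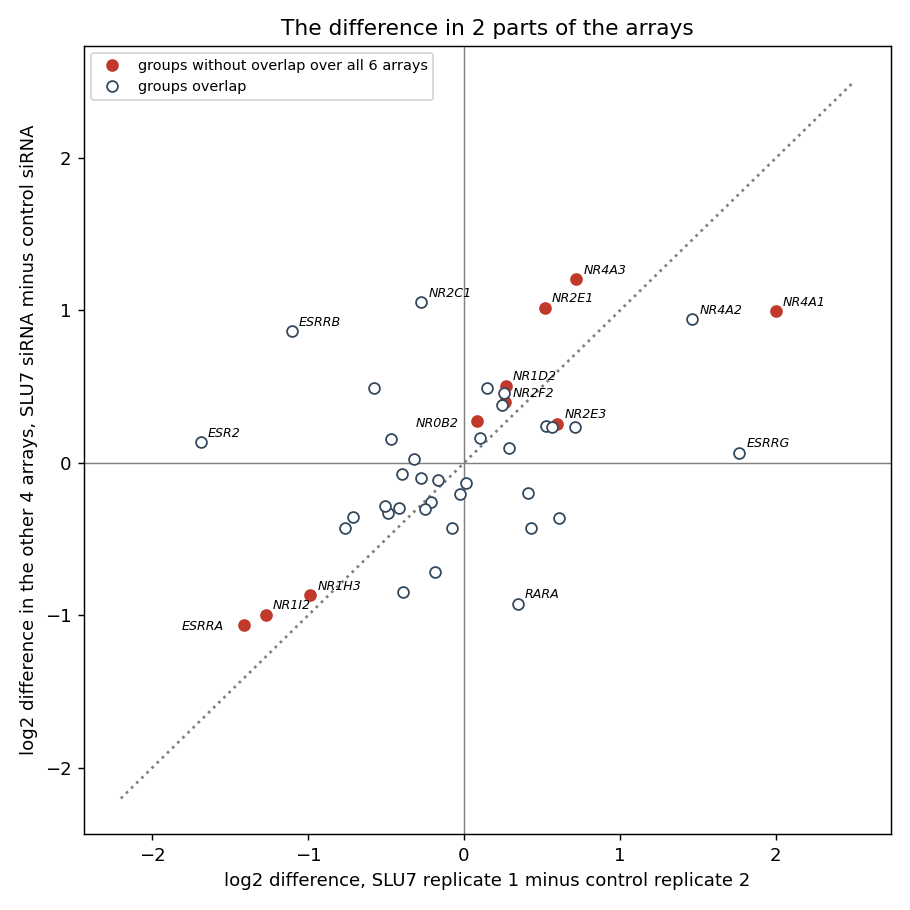
Log2 difference of each receptor gene within the pair of arrays that stands apart (x axis, SLU7 replicate 1 minus control replicate 2) and within the other 4 arrays (y axis, SLU7 siRNA minus control siRNA), with the line of equality dotted. Genes whose groups do not overlap over all 6 arrays (filled) have the same sign on both axes, as groups without overlap must, while ESRRB, ESR2, NR2C1 and RARA do not.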

How the data were processed

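Total RNA of 3 samples per group was measured on Human Exon 1.0 ST arrays from Affymetrix. Per the labels, the chip definition was the core version from aroma.affymetrix, and RMA is named in the submitters' processing notes. The deposited values were read as log2 expression from their range (0.96 to 14.49). The genome build of the array annotation is not given in the sources used here, so no coordinates of transcript clusters are printed. The coordinates of the promoter windows are those of GRCh38.p14. Names were taken from the platform annotation in GEO, in which 16287 of 18708 clusters had 1 symbol, 674 several and 1747 none. RefSeq (GRCh38.p14) gave newer symbols for 2179. Clusters were compared with limma 3.58.1 (R 4.3.3; lmFit, eBayes, group as the only term, no filter), with Benjamini-Hochberg adjustment over all clusters at 0.05. Lists are described by counts and medians, each gene by its brightest cluster. The test was checked in 20 simulations. It recovered 5.75% of changes of 1 log2 unit and 84.4% of changes of 2 log2 units, with 6.25 false calls on average. The members and lists were chosen with earlier results of these data known.

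Arrays in full were given for members without overlap between groups, with an unadjusted p under 0.05 or among the 6 highest means, and from each list for called genes or the one with the smallest p. Further genes described with values, NR4A2, NR2C1, RARA, NR3C1, CYP3A4, TAT and BMAL1 among them, were added once values had been seen. The alternatives were a replicate block, a filter on dim clusters, array weights, quantile normalization, robust shrinkage with an intensity trend, median centring, averaging a gene's clusters, a threshold of 0.01, the pair of arrays that stands apart as a block or left out, and leaving out each array. The number of arrays limits the precision.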

Additional observations from a re-analysis of the deposited data

How the results depend on the processing

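The count of 0 receptor genes called by limma held under every alternative except 2: with array weights 1 gene was called (NR4A3, 1.196, adjusted p = 0.0393) and with the pair of arrays as a block 1 gene (NR1I2, -1.09, adjusted p = 0.0471). The pair was picked from these same values, not from a label. At an unadjusted p under 0.05 there were 4 to 10 of 45 receptor genes under these settings, and the share of all clusters moved too. The count was 4 without SLU7 replicate 2, where 9.8% of all clusters were under 0.05. It was 10 with the pair of arrays as a block (20.6% of all clusters) and 10 without both arrays that stand apart (15.6%). Over all clusters, against 81 called, limma called 324 without the dimmer clusters, 441 with an intensity trend and robust shrinkage, 575 with array weights and 783 with the pair of arrays as a block. It called 0 at a threshold of 0.01, 0 without both arrays that stand apart (2922 at an unadjusted p under 0.05), and 0 without any 1 array (1833 to 2573). The difference of SLU7 passed with a value of -1.51 without the dimmer clusters, with the trend and with the pair as a block (adjusted p = 0.0411, 0.033 and 0.043), and of -1.61 with array weights (adjusted p = 0.0269), and ran from -1.69 to -1.25 without any 1 array. Receptor genes with groups apart numbered 23 without both arrays that stand apart (51.1%, against 46.2% of all clusters). They numbered 11 to 18 without any 1 array (24.4% to 40.0%, against 25.5% to 32% of all clusters). Fewer arrays make separation easier in each case. The median over the receptor genes ran from -0.056 to 0.029 without any 1 array.

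With the replicate block limma called 0 clusters (1845 at an unadjusted p under 0.05) and 0 receptor genes. Whether the replicate numbers pair the samples cannot be decided from these values. The deviations from the group means of same-numbered arrays correlated at -0.38, -0.31 and 0.14. Not every array correlated best with its own number. The highest correlation was 0.52, between the arrays that stand apart (SLU7 replicate 1 and control replicate 2). Deviations within a group sum to 0, so those arrays also shape the other correlations.

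The sign was kept in 31 of 45 receptor genes under every alternative. It turned with array weights in RXRB (-0.10) and NR0B1 (0.098), and without both arrays that stand apart in PPARA (0.027), RXRB (-0.20), ESR2 (0.14) and NR0B1 (0.16). Without any 1 array 12 genes crossed 0, namely NR1H2 (-0.17 to 0.053), NR1I3 (-0.50 to 0.29), PPARD (-0.051 to 0.35), RXRB (-0.18 to 0.16), RARG (-0.50 to 0.0044), VDR (-0.31 to 0.029), ESR1 (-0.19 to 0.78), PGR (-0.35 to 0.41), ESRRB (-0.21 to 0.71), NR1D1 (-0.42 to 0.11), NR6A1 (-2.99e-04 to 0.32) and NR0B1 (-0.28 to 0.098). The cause was not tested. Of the partner and target genes described, ANGPTL4, NPAS2, PRMT1 and SCD, not called in the report, passed without the dimmer clusters, with the intensity trend, with array weights and with the pair as a block. ANGPTL4 also passed with quantile normalization and with the mean of a gene's clusters, and CYP26A1 with array weights. ABCC2 and PCK1 were not called with the replicate block (limma adjusted p = 0.161 for both) or without both arrays that stand apart (0.11 for both). Dim signal limits NR1I2, NR1H4, RXRG, RORB, ESR1, ESR2 and ESRRG, whose means lay below the lower quartile of the clusters.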
